A study of Homo sapiens with 2 samples.

Results

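The genes described here are 8 members of the bone morphogenetic protein (BMP) to SMAD signalling route, namely its ligand BMP4, its type II receptor BMPR2, its feedback inhibitors BAMBI, SMAD6 and SMAD7, and its direct target genes ID1, ID2 and ID3. They were matched by symbol among the 36601 genes of the count tables, and the set was drawn up with earlier results of these data known. They were followed in MDA-MB-231, a mesenchymal triple-negative breast cancer line, in 1 single-cell RNA-seq library of parental cells (D0) and 1 library of revertant cells (D21). D0 cells grew in custom RPMI medium with 100 µM methionine, and D21 cells grew for 21 days in the same base medium without methionine and with 100 µM L-homocysteine and 1.5 µM vitamin B12 as cyanocobalamin. Both media held 10% dialysed, heat-inactivated serum and penicillin and streptomycin, and for D0 no B12 concentration is stated in the labels or methods read here. The D21 cells are a single adapted culture of 1 line, so the 21 days, the change of medium and the selection of surviving cells cannot be told apart.

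BMP ligands are secreted dimers that bring together type I and type II serine/threonine kinase receptors, and the activated type I receptor phosphorylates SMAD1, SMAD5 and SMAD9, which join SMAD4 and act in the nucleus. The ID genes are among the most direct targets of this complex. Their proteins are helix-loop-helix factors without a DNA-binding region that hold E proteins such as TCF3 and TCF12 away from DNA, and they are known for keeping cells undifferentiated and cycling, and in breast cancer lines for a role in colonising distant organs. SMAD6, SMAD7 and BAMBI are themselves induced by the pathway and restrain it, the former pair inside the cell and BAMBI at the membrane as a kinase-less decoy receptor.

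The control regions of 2 members are shown because ID1 was the member with the highest level and the lowest ratio among the well-measured members, while SMAD6 was the member whose window held the rarest of the SMAD-type motifs searched. Each sequence is the 250 bases upstream of a RefSeq start site (GRCh38.p14), written 5′ to 3′ on the plus strand, which is the strand of both genes. Capitals mark a motif, and the ID1 window had no match.
ID1, chr20:31605039-31605288: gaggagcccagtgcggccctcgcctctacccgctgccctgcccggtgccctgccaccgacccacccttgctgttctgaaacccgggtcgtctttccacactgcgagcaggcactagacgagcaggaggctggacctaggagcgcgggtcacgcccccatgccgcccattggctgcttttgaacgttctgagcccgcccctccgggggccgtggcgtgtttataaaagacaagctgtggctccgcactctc
SMAD6, chr15:66701986-66702235: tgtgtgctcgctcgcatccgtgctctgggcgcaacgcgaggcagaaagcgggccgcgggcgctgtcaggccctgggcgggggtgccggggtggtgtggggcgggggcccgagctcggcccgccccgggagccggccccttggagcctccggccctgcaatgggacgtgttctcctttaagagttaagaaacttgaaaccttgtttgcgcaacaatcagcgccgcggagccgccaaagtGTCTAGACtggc
The motifs GTCTAGAC, GGCGCC and CAGAC were searched on both strands in the 12 windows found for the 8 members, and in none of them does a match contain a match of another. The palindromic SMAD element GTCTAGAC began 12 bases before the SMAD6 start site and was in 0.182% of all 35116 windows of this length. The GC-rich SMAD element GGCGCC, in 16.4% of all windows, was found in BAMBI (3 copies), BMPR2 and BMP4. The short SMAD box CAGAC, in 38.0% of all windows, was found in ID3, BMPR2, BAMBI, BMP4 and SMAD7. No motif was found in the windows of ID1 and ID2, and the known BMP-responsive enhancer of ID1 lies further upstream than the window reaches. By the GENCODE annotation, 8 of the 12 windows (those of ID3, ID2, BMP4 and SMAD7) lie wholly inside the gene, where other transcripts start further upstream, and the BAMBI window does so for 179 of its bases, against 6 for ID1, 8 for SMAD6 and 0 for BMPR2. A match in these letters is a description of the window and not a binding site.

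The libraries held 199799447 UMIs (D0) and 199817213 UMIs (D21), a UMI (unique molecular identifier) standing for 1 captured molecule. Cells were barcodes with at least 9009 UMIs at D0 or 5422 at D21, at least 500 genes and at most 20% mitochondrial UMIs, which gave 7492 and 12487 cells with medians of 18908 and 12022 UMIs. The barcodes of 21 cells occurred in both libraries, and without them the ID1 ratio was 0.461, as with them. Mesenchymal markers of the line were present (VIM at 4157 and 2876 CPM), ESR1 and PGR were under 1 CPM, and 16 markers of leukocytes, fibroblasts, endothelium and basal epithelium summed to 15.5 and 12.1 CPM, mostly PECAM1 (8.89 and 6.42 CPM). Of these 16, PECAM1 alone was above 2 CPM at D0, and PECAM1 and the basal marker TP63 (2.08 CPM) were at D21. The T cell marker CD3E had 1 UMI at D0 and 0 at D21, and the basal marker KRT5 had 0 and 4. Luminal epithelial markers were not among the 16, and their keratins were abundant. KRT8 was at 392 and 341 CPM, KRT18 at 858 and 885 CPM and KRT19 at 970 and 658 CPM, while GATA3 was at 6.26 and 8.13 CPM. ERBB2 (11.8 and 10.2 CPM) and EPCAM (9.46 and 10.1 CPM) were above ESR1 and PGR. Levels below are UMIs summed over cells and given as counts in 1000000 UMIs of all genes (CPM), and since 3′ libraries give 1 UMI per molecule whatever its length, they are compared between genes without a length correction. With 1 library per condition no test was possible. All intervals are 95% intervals for counting error only and do not cover variation between cultures, so a ratio between D0 and D21 describes these libraries.

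ID1 and ID3 were lower at D21, BMP4 was lower by less, and BMPR2 lay at the same level. Of the 4 members with at least 20 CPM in either library, 2 (ID1 and ID3) were lower by at least 1.5-fold and 0 were higher, where 3.47% of the 6867 genes at that level were lower by as much and 1.12% were higher. The other 4 members, SMAD7, BAMBI, SMAD6 and ID2, were under 8 CPM in both libraries and had ratios below 1.

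**Figure D1:**
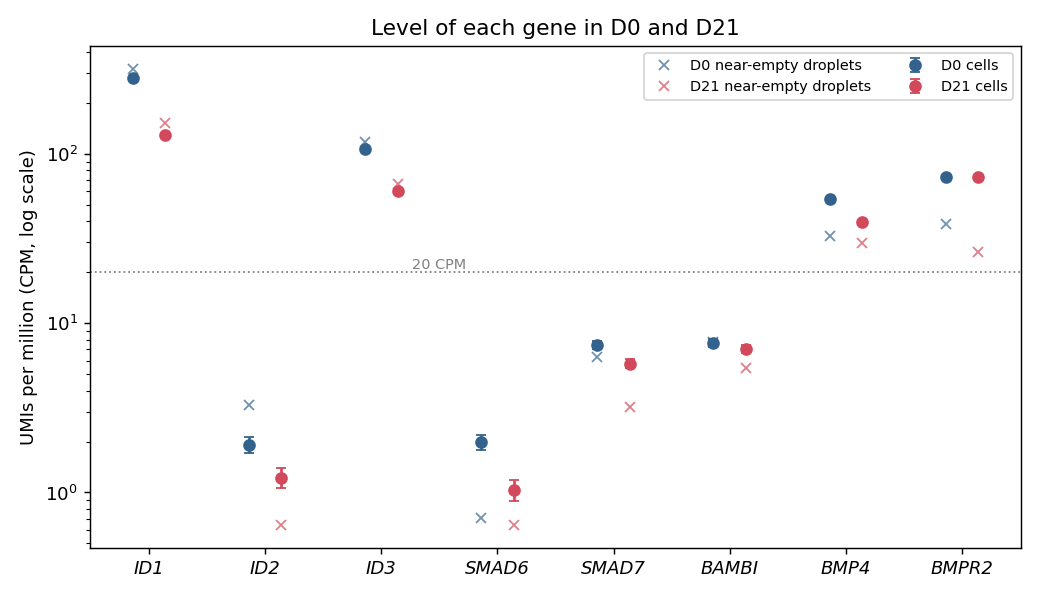
Level of each of the 8 genes in cells (dots, with 95% counting intervals) and in near-empty droplets of 10 to 100 UMIs (crosses), in CPM on a log axis, at D0 (blue) and D21 (red). ID1 went from 281 to 129.5 CPM and ID3 from 107 to 60.8 CPM, while BMPR2 stayed at 73 CPM. The dotted line is 20 CPM.

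BMP4, the ligand (chr14:53949736-53958761, minus strand), had 9966 UMIs at D0 and 7256 at D21, or 54.4 CPM (interval 53.4 to 55.5) and 39.7 CPM (38.8 to 40.6). The D21 level was 0.729 of the D0 level (0.707 to 0.752), short of the 1.5-fold limit. The intervals of the levels did not overlap, and BMP4 stood at place 484 of 6867 genes counted from the lowest ratio.

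BMPR2, the type II receptor that binds BMP ligands (chr2:202376936-202567751, plus strand), had 13395 UMIs at D0 and 13279 at D21. Its levels of 73.2 CPM (71.9 to 74.4) and 72.6 CPM (71.4 to 73.9) overlapped, and the ratio was 0.993 (0.969 to 1.02). The receptor stood at the middle of the ranking of all measured genes by ratio, at place 3331 of 6867 from the lowest.

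BAMBI, the decoy receptor (chr10:28677342-28682939, plus strand), was at 7.67 CPM at D0 (7.28 to 8.09) and 7.07 CPM at D21 (6.69 to 7.46). The ratio of 0.921 (0.853 to 0.994) lay just below 1, and the level intervals overlapped.

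SMAD7, the inhibitory SMAD of both the BMP and TGF-β branches (chr18:48919853-48952052, minus strand), was at 7.41 CPM (7.02 to 7.82) and 5.78 CPM (5.43 to 6.13), a ratio of 0.779 (0.718 to 0.845). SMAD6, the inhibitory SMAD with a preference for the BMP branch (chr15:66702228-66782848, plus strand), rested on few counts, with 362 UMIs at D0 and 189 at D21. Its level went from 1.98 CPM (1.78 to 2.19) to 1.03 CPM (0.892 to 1.19), and the ratio was 0.523 (0.436 to 0.625). A sense intronic transcript, AC013564.1, lies within SMAD6 and was counted as a gene of its own.

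ID1 (chr20:31605283-31606515, plus strand) was the most abundant member in both libraries. It had 51394 UMIs in D0 cells and 23679 in D21 cells, or 280.7 CPM (278 to 283) and 129.5 CPM (128 to 131). The ratio was 0.461 (0.454 to 0.469), a 2.17-fold lower level, and ID1 stood at place 31 of 6867 from the lowest ratio, among the 0.728% of genes that were lower by at least 2-fold.

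ID3 (chr1:23557918-23559794, minus strand), which encodes a close relative of the ID1 protein, had 19527 UMIs at D0 and 11112 at D21. Its D0 and D21 levels were 107 CPM (105 to 108) and 60.8 CPM (59.7 to 61.9), a ratio of 0.570 (0.557 to 0.583), at place 93 of 6867. The interval of its ratio lay wholly above that of ID1, so ID1 was lower by more.

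ID2 (chr2:8678845-8684453, plus strand) was nearly silent in this line, with 350 UMIs at D0 and 224 at D21. Its levels were 1.91 CPM (1.72 to 2.12) and 1.23 CPM (1.07 to 1.40), a ratio of 0.641 (0.540 to 0.760). The antisense gene ID2-AS1 overlaps it, and the strand setting behind the counts is not stated. For genes of 1 to under 20 CPM, where ID2, SMAD6, SMAD7 and BAMBI belong, 7.55% of 7789 genes were lower by at least 1.5-fold and 5.98% were higher by as much, so folds of this size were more common there than among abundant genes.

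Together with ID4, a family member not among the 8 genes, the ID family summed to 392 CPM in D0 cells and to 193 CPM in D21 cells. ID1 made up 71.7% of these UMIs at D0 and 67.1% at D21, and ID3 27.2% and 31.5%. ID2 and ID4 jointly gave 1.10% and 1.47%, so the ID mRNA of this line was nearly all ID1 and ID3 in both media.

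At D0 the order of levels was ID1, ID3, BMPR2, BMP4, BAMBI, SMAD7, SMAD6, ID2, and the intervals of BAMBI and SMAD7 and those of SMAD6 and ID2 overlapped. At D21 BMPR2 stood above ID3, and the order below BMP4 was BAMBI, SMAD7, ID2, SMAD6, with only the last pair overlapping. ID3 and BMPR2 thus changed places, ID3 having been the higher at D0.

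**Figure D2:**
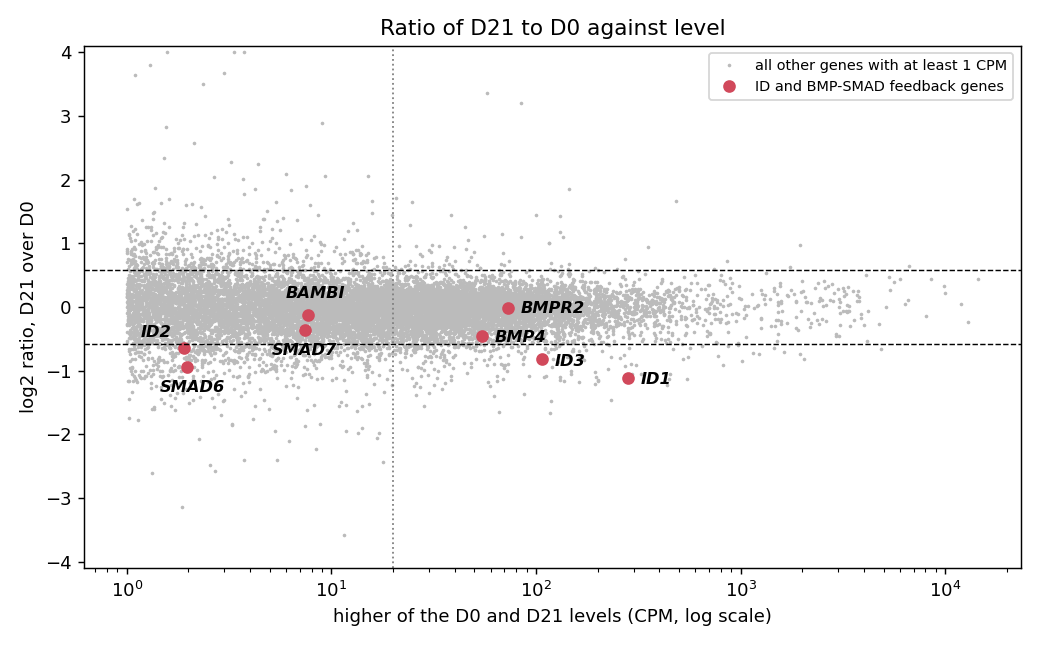
Log2 ratio of D21 to D0 (vertical) against the higher of the levels in CPM on a log axis (horizontal) for all genes with at least 1 CPM (grey, clipped at 4 and -4), with the 8 genes in red. Dashed lines mark 1.5-fold and the dotted line 20 CPM. ID1 at -1.12 and ID3 at -0.81 lie below the lower dashed line, BMP4 at -0.46 above it and BMPR2 at -0.01 in the middle of the cloud.

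Near-empty droplets of 10 to 100 UMIs, which hold free RNA, were measured in the same way. Their ID1 level was 318 CPM in the D0 and 153 CPM in the D21 library, and their ID3 level 117 and 66.0 CPM, so free RNA showed the same order between the libraries. Per droplet this was 0.0198 and 0.00834 ID1 UMIs, against 6.86 and 1.90 ID1 UMIs per cell. BMPR2 was scarcer in near-empty droplets (38.4 and 26.4 CPM) than in cells.

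The other genes of the pathway were examined through 8 lists of 89 genes in all, of which 36 had at least 20 CPM in either library. Of these 36, 1 was lower by at least 1.5-fold (PMEPA1) and 1 was higher (BMPER), and their median log2 ratio was 0.04, where the median of all genes at that level was -0.00. PMEPA1, a transmembrane protein that binds receptor SMADs and is itself a TGF-β target, went from 87.7 to 51.1 CPM, a ratio of 0.583 (0.568 to 0.598). BMPER, a secreted BMP-binding protein of the chordin type, went from 7.94 to 24.8 CPM, a ratio of 3.13 (2.95 to 3.32). The shares lower and higher among all genes at that level were the 3.47% and 1.12% given above.

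By role, all 4 measured receptors and co-receptors lay within 1.5-fold, with TGFBR2, the type II TGF-β receptor, the most abundant at 117 CPM at D21 and a ratio of 1.05 (1.03 to 1.08). All 4 measured SMADs did so too, with log2 ratios from 0.03 to 0.32. SMAD3, a signal-transducing SMAD of the TGF-β branch, was the most abundant of them at 122 CPM at D21, with a ratio of 1.08 (1.06 to 1.10), and SMAD5, a BMP-branch SMAD, had a ratio of 1.02 (0.995 to 1.05). None of the 4 was lower at D21, in contrast to ID1 and ID3.

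Among 6 measured extracellular antagonists BMPER was past the fold, and the most abundant, CRIM1, a membrane protein that binds BMPs, had a ratio of 1.24 (1.22 to 1.26). Among 11 measured intracellular brakes PMEPA1 was past it, and the most abundant, the ubiquitin ligase SMURF2, had a ratio of 0.955 (0.945 to 0.965). SMURF2 was more abundant than any of the 8 genes, at 394 CPM at D21.

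Of the other BMP or SMAD targets, 4 were measured and none was past the fold. Their log2 ratios ranged from -0.33 to 0.17. Of 4 further targets with 1 to under 20 CPM, none was past the fold in either direction. ID4 was among these, with a ratio of 0.674 (0.579 to 0.782).

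The 6 measured partners of ID proteins were all within 1.5-fold. The most abundant at D21 was TCF12, an E protein, with a ratio of 1.04 (1.01 to 1.06), while ETS1, an ETS-family factor, had a ratio of 0.751 (0.736 to 0.766). CDKN1A, the p21 cell cycle inhibitor that ID proteins are known to keep low, was at 56.8 CPM at D21 with a ratio of 0.921 (0.896 to 0.945). CDKN2A and CDKN2B had 0 UMIs in both libraries, which allows up to 0.0164 CPM in each by a limit of 3 counts, used for a count of 0 in place of the interval.

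No gene of the BMP-type ligand list reached 20 CPM. The list also holds BMP1, which encodes a protease and not a ligand, so its counts are of listed genes. Over all lists, 28 genes had 1 to under 20 CPM, of which 5 were lower by at least 1.5-fold and 1 was higher, where 7.55% and 5.98% of all genes at that level were. None of the 8 receptors and 2 SMADs at that level was past the fold. Of 8 genes of the ligand list with 1 to under 20 CPM, 3 were lower by at least 1.5-fold and 1 was higher. The former were BMP2 (0.657), GDF5 (0.410) and INHBB (0.362), and the latter was INHBA, the activin A subunit, which went from 3.62 to 15.2 CPM. BMP4, at 54.4 and 39.7 CPM, was thus more abundant in both libraries than any of the 17 genes of the ligand list. Of 3 antagonists at this low level, NOG (noggin, 0.510, 0.465 to 0.559) and CHRDL1 (0.533, 0.451 to 0.627) were lower and FSTL3 was within the fold (0.838). BMP2, GDF5, INHBB, INHBA, NOG, CHRDL1 and FSTL3 are named after their values were seen.

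**Figure D3:**
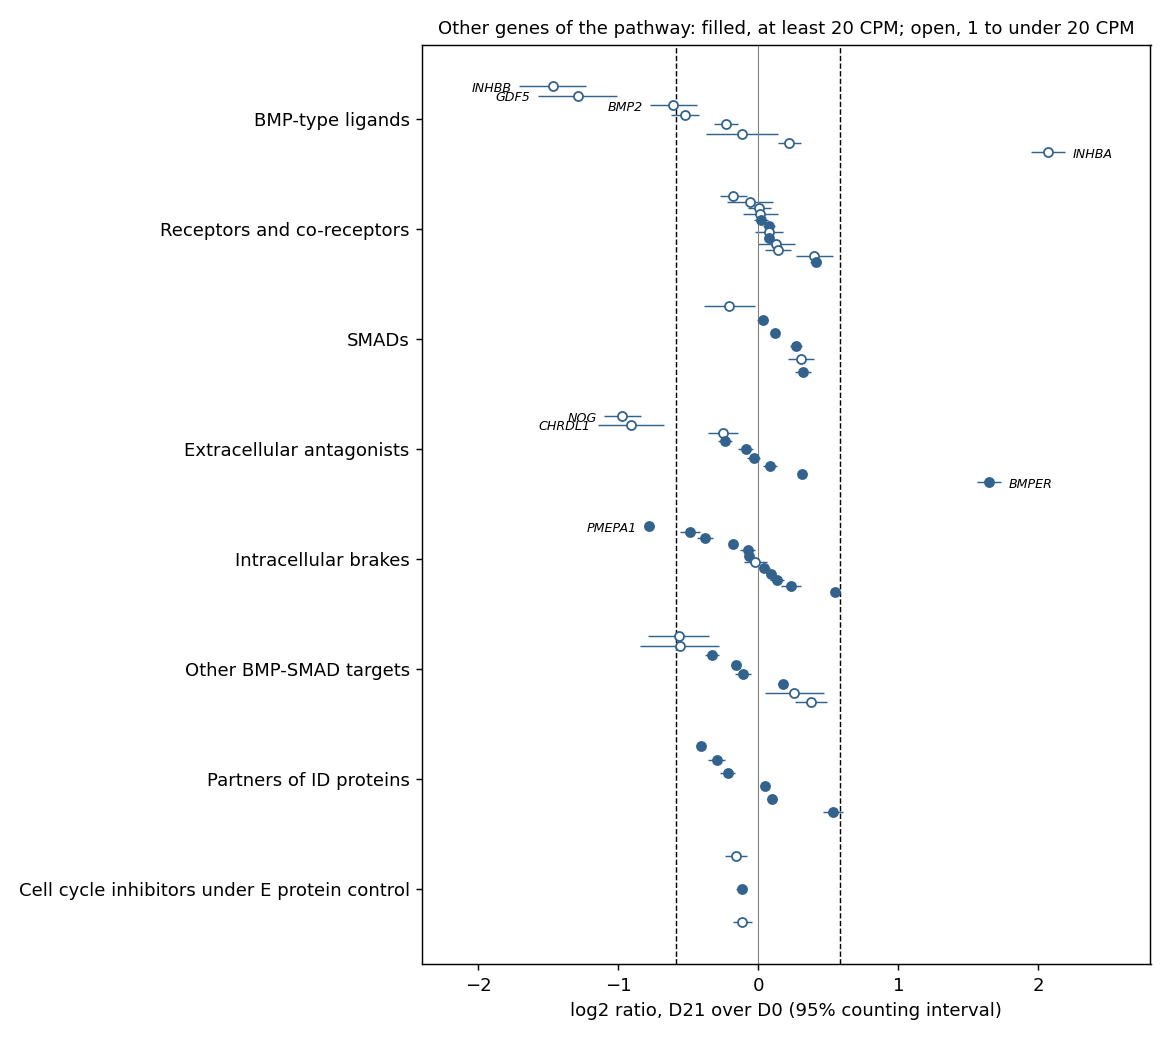
Log2 ratio of D21 to D0 with its 95% counting interval for each pathway gene outside the 8, by list (rows). Filled points have at least 20 CPM in either library and open points 1 to under 20 CPM, and dashed lines mark 1.5-fold. Of the filled points PMEPA1 lies left of the lower line and BMPER right of the upper one.

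The cells of this line fall into a pair of states, and their shares differed between the libraries, so the genes were compared within each state. A cell was put in the CEMIP-SAA class where its mean ln(1 + counts per 10000) over CEMIP, SAA1, SAA2, FLG and NNMT exceeded that over CST1, FAM155A, AFF3, AGR2 and SPANXB1, and otherwise in the AGR2-CST1 class, a cut that uses none of the 8 genes. The CEMIP-SAA class held 2147 D0 cells (28.7%, interval 27.6 to 29.7) and 6761 D21 cells (54.1%, 53.3 to 55.0), with 34.1% and 59.5% of the UMIs. The class is a range of a score and not a cell type. The genes of the score themselves moved, with D21 to D0 ratios from 1.23 (CEMIP) to 3.63 (SAA2) on the CEMIP-SAA side. On the other side the ratios ran from 0.455 (AGR2) to 0.960 (CST1). A cell can therefore change class through these genes alone, and a D21 class need not hold the same kind of cells as at D0. This limits the ratios within classes and those from class shares alone. Within 0.1 of the cut lay 204 and 348 D0 cells of the CEMIP-SAA and AGR2-CST1 classes and 244 and 606 D21 cells, and in both classes the median cell had a score of 0 for the genes of the other class.

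ID1 was lower at D21 in both classes. In the CEMIP-SAA class it went from 291 to 124 CPM, a ratio of 0.427 (0.418 to 0.437), and in the AGR2-CST1 class from 276 to 137 CPM, a ratio of 0.498 (0.487 to 0.510). The classes differed little in ID1, it being 1.05 times as high in the CEMIP-SAA class at D0 (1.04 to 1.07) and 0.904 times as high at D21 (0.881 to 0.927).

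ID3 differed from ID1 in that it followed the class. At D0 it was at 170 CPM in the CEMIP-SAA class and 74.0 CPM in the AGR2-CST1 class, 2.29 times as high (2.23 to 2.36), and at D21 it was at 70.5 and 46.5 CPM, 1.51 times as high (1.45 to 1.58). Its ratio of D21 to D0 was 0.416 (0.404 to 0.428) in the CEMIP-SAA class and 0.628 (0.604 to 0.654) in the AGR2-CST1 class. Had each class kept its D0 level, the larger CEMIP-SAA class at D21 would by itself have given an ID3 ratio of 1.23, and the measured ratio over all cells was 0.570. The CEMIP-SAA cells were also deeper, with median UMIs of 23564 against 17360 at D0 and 13510 against 10486 at D21. What part depth has in the ID3 difference between the classes was not tested.

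BMP4 went from 68.7 to 40.7 CPM in the CEMIP-SAA class, a ratio of 0.592 (0.568 to 0.618), and from 47.0 to 38.2 CPM in the AGR2-CST1 class, a ratio of 0.812 (0.776 to 0.850). The ligand was therefore past 1.5-fold in the CEMIP-SAA class only, with the intervals of the ratios apart. The BMP4 level of the classes differed by 1.46 times at D0 and by 1.07 times at D21.

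BMPR2 was higher in the CEMIP-SAA class in both libraries, by 1.58 times at D0 (1.53 to 1.63) and 1.53 times at D21 (1.47 to 1.59). Within the classes its ratios were 0.876 (0.847 to 0.905) and 0.905 (0.871 to 0.940), slightly below 1 in each although the ratio over all cells was 0.993. The class shares alone would have given BMPR2 a ratio of 1.12.

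Counting members with at least 20 CPM, 3 of 4 were lower by at least 1.5-fold in the CEMIP-SAA class (ID1, ID3 and BMP4), where 3.78% of genes were, and 2 of 4 in the AGR2-CST1 class (ID1 and ID3), where 3.42% were. The ratio was lower in the CEMIP-SAA than in the AGR2-CST1 class, without overlap of the intervals, for ID1, ID3 and BMP4, and for 17.1% of the 6503 genes compared. With each cell weighted equally, or with every cell thinned to one depth, ID3 in the AGR2-CST1 class was at a log2 ratio of -0.51 or -0.49, short of 1.5-fold.

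Of the scarcer members, SMAD7 was higher in the CEMIP-SAA class (1.79 times at D0 and 1.44 times at D21) and had ratios of 0.631 (0.566 to 0.702) and 0.786 (0.688 to 0.895) in the CEMIP-SAA and AGR2-CST1 classes. BAMBI went the other way, with a ratio of 0.998 (0.891 to 1.12) in the CEMIP-SAA class and 0.795 (0.708 to 0.891) in the AGR2-CST1 class. The intervals of SMAD6 (0.437, 0.335 to 0.567, and 0.615, 0.473 to 0.792) and of ID2 (0.566, 0.441 to 0.727, and 0.701, 0.545 to 0.897) overlapped between the classes.

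**Figure D4:**
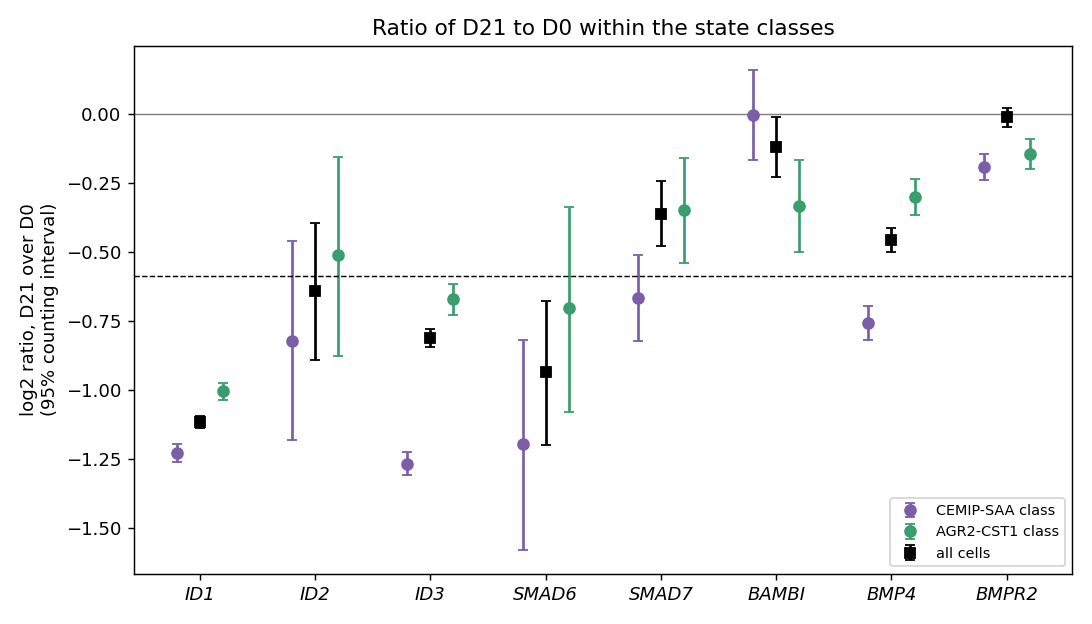
Log2 ratio of D21 to D0 with its 95% counting interval for each of the 8 genes over all cells (black squares), in the CEMIP-SAA class (purple) and in the AGR2-CST1 class (green). The dashed line marks 1.5-fold lower. ID3 lies at -1.27 in the CEMIP-SAA and -0.67 in the AGR2-CST1 class, and BMP4 crosses the line in the CEMIP-SAA class only.

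Depth and cell cycle were examined in the same way, since cells differ in both and the libraries differ in depth. The shares of cycling cells were not compared between the libraries. After each library was split by UMIs per cell into 4 groups of like size, the ID1 ratio lay between 0.444 and 0.467 in every group. The groups were cut within each library and are not matched in depth. Their median UMIs were 11779 at D0 and 7082 at D21 in the shallowest group, and 40876 and 24106.5 in the deepest. The ID1 level was lower in deeper cells, going at D0 from 310.1 CPM in the shallowest group to 269.8 CPM in the deepest.

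ID3 was higher in deeper cells instead, going from 75.4 to 121 CPM at D0, and its ratio went from 0.685 (0.635 to 0.739) in the shallowest group, short of 1.5-fold, to 0.518 (0.501 to 0.535) in the deepest. BMP4 had ratios from 0.680 to 0.810 and BMPR2 from 0.976 to 1.05 over these groups. What part depth has in the ID3 ratio was not tested.

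In the 25% of cells with the highest score of mitotic genes the ID1 ratio was 0.484 (0.470 to 0.497), and 0.452 (0.444 to 0.460) in the others. In the 25% with the highest S phase score it was 0.417 (0.405 to 0.429), and 0.481 (0.472 to 0.490) in the others. ID3 was higher in the cells with a high S phase score, at 135 against 95.5 CPM at D0, with ratios of 0.558 and 0.578. BMP4 was lower in mitotic cells than in the others, at 41.5 against 60.0 CPM at D0. The cells with high scores were also deeper at D0. Their median UMIs were 22431 against 17746 for the S phase score and 23150 against 17646 for the mitotic score. What part depth has in these ID3 and BMP4 differences was not tested.

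To ask how many cells had a UMI of each gene, every cell was thinned at random to 5422 UMIs, the lower of the cell minimums, so that no cell was left out. ID1 was then found in 63.9% of D0 cells (62.8 to 65.0) and 43.8% of D21 cells (43.0 to 44.7). Before thinning the shares were 87.9% and 65.6%. The mean over all thinned cells was 1.55 and 0.733 ID1 UMIs. Every cell here is of 1 line, so no cell type without ID1 could give a background share, and the near-empty droplets with their 0.0198 and 0.00834 ID1 UMIs each are the measure of free RNA at hand.

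Fewer cells had a high ID1 count at D21, where the mean was also lower. Cells with at least 8 ID1 UMIs after thinning numbered 106 of 7492 at D0 (1.41%) and 15 of 12487 at D21 (0.120%), and the highest count was 21 at D0 and 12 at D21. The variance of ID1 counts was 2.28 times the mean at D0 and 1.65 times at D21, above the value of 1 that sampling alone gives. A lower mean (1.55 at D0 and 0.733 at D21) by itself gives fewer cells with a high count. It also gives a smaller variance relative to the mean where the relative spread between cells stays the same. Whether the relative spread of ID1 between cells differed was not tested.

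ID3 was found in 32.1% (31.1 to 33.2) and 23.1% (22.3 to 23.8) of thinned cells, and BMP4 in 22.8% (21.8 to 23.7) and 18.3% (17.6 to 19.0). BMPR2 was found in 28.7% (27.6 to 29.7) and 29.8% (29.0 to 30.6), with overlapping intervals. Each of the scarcer members was found in under 4% of thinned cells in both libraries. The share was lower at D21 without overlap of the intervals for 5 of the 8 members (ID1, ID3, BMP4, SMAD6 and ID2), and for 23.9% of the 14657 genes with at least 1 CPM. With another random draw of the thinning the count was again 5, but with SMAD7 (intervals of 3.27 to 4.14% and 2.52 to 3.11%) in place of ID2 (0.682 to 1.12% and 0.573 to 0.876%), whose intervals then overlapped. It was 4, without ID2, with no mitochondrial limit and without the 6% of cells with most UMIs. ID1, ID3, BMP4 and SMAD6 were lower without overlap in each of these settings.

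Between cells, ID1 and ID3 varied together. Of the 28 pairs among the 8 members, this was the 1 pair with a Pearson correlation of ln(1 + counts per 10000) of at least 0.1 in both libraries, and among all pairs of genes with at least 20 CPM in both libraries this share was 0.27%. Most of the 28 pairs hold a member under 20 CPM, and the 0.27% does not cover such pairs. The ID1 and ID3 correlation was 0.20 over the 7492 D0 cells and 0.12 over the 12487 D21 cells, all thinned to one depth. Without thinning it was 0.35 and 0.22. Both genes had fewer UMIs per thinned cell at D21, and what part this has in the lower correlation was not tested. The cells of a library share that library and its state classes. Within the CEMIP-SAA class the thinned values were 0.27 and 0.15, and within the AGR2-CST1 class 0.17 and 0.10. The last fell just short of 0.1 before rounding.

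Both genes were found in 23.6% of D0 cells, where the product of their separate shares was 20.5%, and in 12.1% of D21 cells, where it was 10.1%. ID3 was higher in cells with more ID1 UMIs. At D0 it went from 61.8 CPM (57.8 to 66.0) in cells without an ID1 UMI to 282 CPM (240 to 329) in cells with at least 8. At D21 it went from 46.6 CPM (44.5 to 48.9) without an ID1 UMI to 119 CPM (103 to 135) with 4 to 7.

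At equal ID1 counts ID3 was lower at D21. In cells with exactly 1 ID1 UMI it was at 88.3 CPM (82.7 to 94.3) at D0 and 63.3 CPM (59.7 to 67.2) at D21, and in cells with 2 to 3 it was at 109 CPM (103 to 116) and 83.8 CPM (78.2 to 89.6). An ID1 count of this size is a coarse measure of the cell's ID1 level, so equal counts do not mean equal ID1 levels in the libraries. Whether ID3 was lower at equal ID1 levels was not tested.

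At D0 BMP4 was at 54.0 CPM (50.3 to 57.9) in cells without ID1 and 58.7 CPM (54.1 to 63.6) with 1 ID1 UMI. It was at 53.7 CPM (49.4 to 58.4) with 2 to 3, 46.9 CPM (40.9 to 53.6) with 4 to 7 and 50.5 CPM (33.8 to 72.5) with 8 or more. The intervals for 1 and for 4 to 7 ID1 UMIs did not overlap. At D21 BMP4 was at 41.4 CPM (39.4 to 43.5) without ID1 and 39.5 CPM (30.9 to 49.8) with 4 to 7, with overlapping intervals. In D0 cells without ID1 and with 4 to 7 ID1 UMIs, BMPR2 was at 66.6 CPM (62.5 to 70.9) and 73.4 CPM (65.8 to 81.7), with overlapping intervals. The correlation of ID1 with BMP4 was -0.00 at D0 and -0.01 at D21, and with BMPR2 0.01 and -0.00. BMP4 and BMPR2 correlated at 0.04 and 0.03 (0.13 and 0.04 without thinning), and cells with both were 1.11 and 1.09 times the product of the shares. The thinned correlations lay under the 0.1 set for counting a pair, in both libraries.

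**Figure D5:**
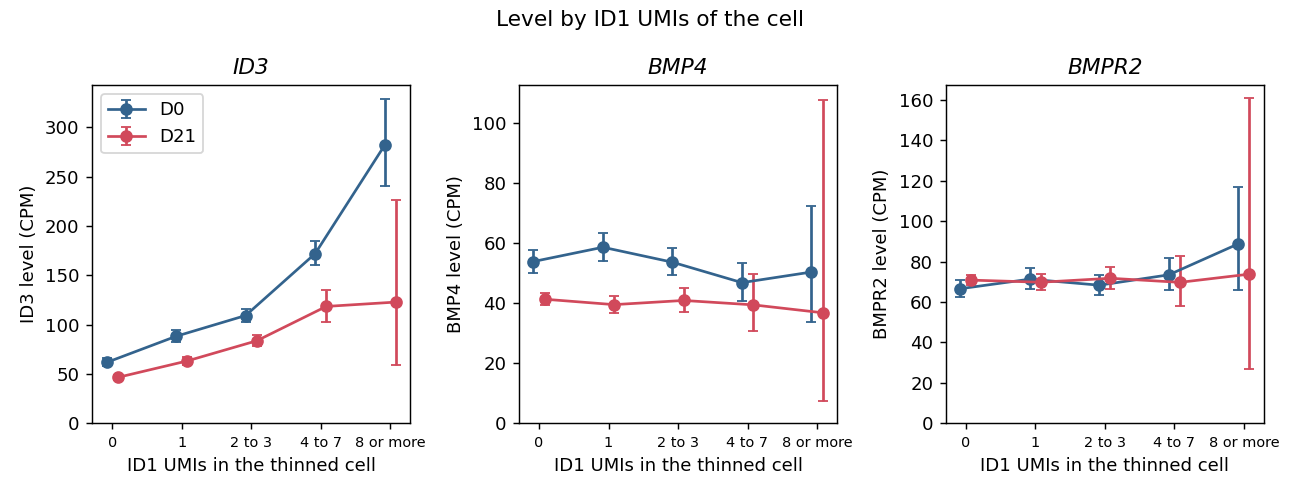
Level of ID3, BMP4 and BMPR2 in CPM with 95% counting intervals (vertical) in cells grouped by their ID1 UMIs after thinning (horizontal), at D0 (blue) and D21 (red). ID3 goes from 61.8 to 282 CPM at D0, while BMP4 and BMPR2 lie within overlapping intervals in the first and the last group. The group with 8 or more UMIs holds 106 D0 and 15 D21 cells.

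Among the 6363 genes with at least 20 CPM in both libraries, the gene most like ID1, by the lower of the libraries' correlations, was ID3, and the gene most like ID3 was ID1. After ID3, the genes next to ID1 were GAPDH (0.08 and 0.09), ADIRF, TMSB10 and MT1E, and after ID1 those next to ID3 were HSPE1 (0.11 and 0.10), FTL, FTH1 and RPL35. Neither ADIRF (ratio 0.972) nor TMSB10 (1.04) nor MT1E (0.994) shared the lower level of ID1 at D21, while GAPDH had a ratio of 0.636. The genes next to ID3 had ratios of 1.35 (HSPE1), 1.565 (FTL), 1.25 (FTH1) and 0.961 (RPL35), against 0.570 for ID3.

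The genes most like BMP4 were DKK1 (0.15 and 0.10), which encodes a secreted WNT inhibitor, ANKRD1 (0.12 and 0.09), TGFB2 (0.14 and 0.09), PLK2 and ROR1. Of these ANKRD1 was lower at D21, with a ratio of 0.459, and TGFB2, a TGF-β ligand gene, had a ratio of 1.32. The genes most like BMPR2 were EXT1 (0.16 and 0.15), MALAT1, LINC01505, MAP4K4 and NEAT1, with ratios from 1.01 to 1.42. MALAT1 and NEAT1 are long non-coding RNAs held in the nucleus. No member was among the 5 genes most like BMP4 or BMPR2, and by likeness to BMP4 BMPR2 ranked 122, ID3 2759 and ID1 2849 of 6363.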

How the data were processed

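Both samples were grouped by the submitters' labels. The deposited values are raw UMI counts per gene and barcode, made by the authors from 10x Genomics 3′ v3.1 libraries with Cell Ranger 4 and GRCh38 (per the file headers and the labels), empty droplets included. The alignment settings, strand setting and annotation behind the counts are not stated in the labels, headers or methods. The gene and barcode lists hold no measurements.

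A barcode was taken as a cell where its UMIs reached 10% of the 99th percentile among the top 5000 barcodes, with the gene and mitochondrial limits given above. Doublets were not called, and an alternative left out the 6% of cells with most UMIs. Counts were summed per library as CPM, with exact Poisson intervals, exact conditional intervals for ratios and exact binomial (Clopper-Pearson) intervals for shares, at 95%. With 1 library per condition there was no test, and past the fold means 1.5-fold with at least 20 CPM in either library. Cells were thinned to 5422 UMIs without replacement for shares and correlations. The computations were tested on simulated counts. Python 3.11.15 with numpy, scipy, pandas and matplotlib 3.10.9 was used (numpy 2.4.6, scipy 1.17.1, pandas 2.3.3).

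Named genes were all 8 members, pathway genes past the fold, the most abundant gene of each list, and the 5 genes most like each abundant member. A result that this rule takes is not reported here. The members and lists were chosen with earlier results of these data known. Positions are from GENCODE 29 (GRCh38) and upstream windows from RefSeq (GRCh38.p14), which matched 8 of 8 members. Groups by UMIs, cell cycle groups, shared barcodes and the low-level background were added after seeing the data.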

Additional observations from a re-analysis of the deposited data

How the results depend on the processing

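Counts are of genes past 1.5-fold unless said otherwise. Of the 8 members 2 were lower in the main setting, 4 with no filter on low values, 1 with a 2-fold limit and 1 in the shallowest 25% of cells. For the other pathway genes, 1 lower became 2 with at least 5 CPM, 14 with no filter and 0 at 2-fold, and 1 higher became 2 (totals without mitochondrial and ribosomal protein genes, equal cell weights, thinned cells, or at least 5 CPM), 3 (the same UMI minimum in both libraries) or 9 (no filter). The members lower in both state classes went from 2 to 1 without the 6% of cells with most UMIs, with equal cell weights and with thinned cells, where ID3 in the AGR2-CST1 class was at -0.54, -0.51 and -0.49 (log2). The members with a lower share of cells went from 5 to 8 without thinning, which leaves the depth difference in, and to 4 with no mitochondrial limit or without the 6% of cells with most UMIs. The pairs correlated in both libraries went from 1 to 0 within the AGR2-CST1 class. No value changed its direction past the fold. Over 8 alternatives of scaling, cell calling, weighting and thinning, the log2 ratio of ID1 stayed between -1.13 and -1.08, of ID3 between -0.86 and -0.72, of BMP4 between -0.50 and -0.41, of BMPR2 between -0.03 and 0.03 and of SMAD6 between -1.16 and -0.81. No paired analysis was possible because each condition has 1 library. Depth limits ID2 and SMAD6, each with under 400 UMIs in a library, and variation between cultures is unknown.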
